A study of Macaca mulatta with 24 samples.

Results

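The colon of irradiated rhesus macaques (Macaca mulatta) was compared between day 7 and day 4 after total-body irradiation. The comparison used the 8 arrays of irradiated animals labelled day 7 and the 8 labelled day 4, which make 16 of the 24 arrays of the series. Each set of 8 held 4 animals that had received 6.7 Gy and 4 that had received 7.4 Gy, and the day difference was taken within each dose and then averaged, so that dose stood as a covariate. The other 8 arrays, from 4 unirradiated controls and from 4 animals killed on day 12 (2 at each dose), took no part in the contrast. Their levels are given beside the results as a description.

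The animals were young-adult males given a single uniform dose of gamma rays from a cobalt-60 source. A piece of whole colon was taken from each animal, and its RNA was hybridised without pooling to 1 single-colour Agilent array, so that a replicate is 1 animal and different animals stand for different days. The unirradiated animals are labelled day 4 and are the only controls. Because RNA of whole tissue was measured, fewer cells of a type and less RNA per cell cannot be told apart in any value below.

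The lining of the colon is renewed from dividing cells at the base of its crypts, and their offspring mature into absorptive colonocytes, mucus-making goblet cells and hormone-making enteroendocrine cells as they move to the surface. Ionising radiation kills dividing crypt cells and lymphocytes, so the lining thins over the following days and the wall becomes inflamed. Surviving crypts can then divide and rebuild the surface epithelium. Mature colonocytes absorb salt, water and short-chain fatty acids, and claudins and other junction proteins seal the space between them.

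A level is given as a scaled log2 signal, which is the log2 of a probe's signal minus the log2 of the 75th percentile of signals on the same array. A step of 1 is a doubling, and levels of different probes are not compared. Probes entered the test when 2 or more of the 24 arrays held them well above background. It was called when limma's adjusted p was under 0.05 and the difference was at least 2-fold. The 75th percentile was higher on day 4 (889 ± 66.2, SD, n = 8) than on day 7 (765 ± 55.2, n = 8; exact permutation test within dose, two-sided, p = 0.0037), and so was the mean log2 signal of the spike-in probes (13.29 against 13.17; exact permutation p = 0.0098). The share of probes well above background was 76.5% on day 4 and 76.3% on day 7 (exact permutation p = 0.958). Each of the 6 slides held both days. All day 4 arrays lay in positions 1 and 2 of their slide and all day 7 arrays in positions 3 and 4, so position and day cannot be told apart in a fixed model.

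Of 38234 probes tested, 1697 were called (4.44%), 908 higher on day 7 (2.37%) and 789 lower (2.06%). Scaling by spike-in probes left the median difference of all probes at -0.03 instead of 0.07 on the log2 scale, called 1809 probes, and turned the share of calls that were higher on day 7 from 53.5% to 38.2%. With normexp background correction of the median spot signals 747 probes were called, and 28 of the 87 named genes called here had a fold over 1.5 times smaller. One probe was taken for each named gene, and 13462 genes were tested in this way. Among them 358 were higher on day 7 (2.66%) and 321 were lower (2.38%), with a median log2 difference of 0.02 over all genes. The 8 day 7 arrays did not overlap the 8 day 4 arrays in 1585 of the 38234 probes (4.15%). Of these 484 were called, 331 higher and 153 lower on day 7, and the others did not pass the limits of a call. The first principal component of the 16 arrays held 25.2% of their variance, with every day 4 array on one side of 0 and every day 7 array on the other.

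**Figure D1:**
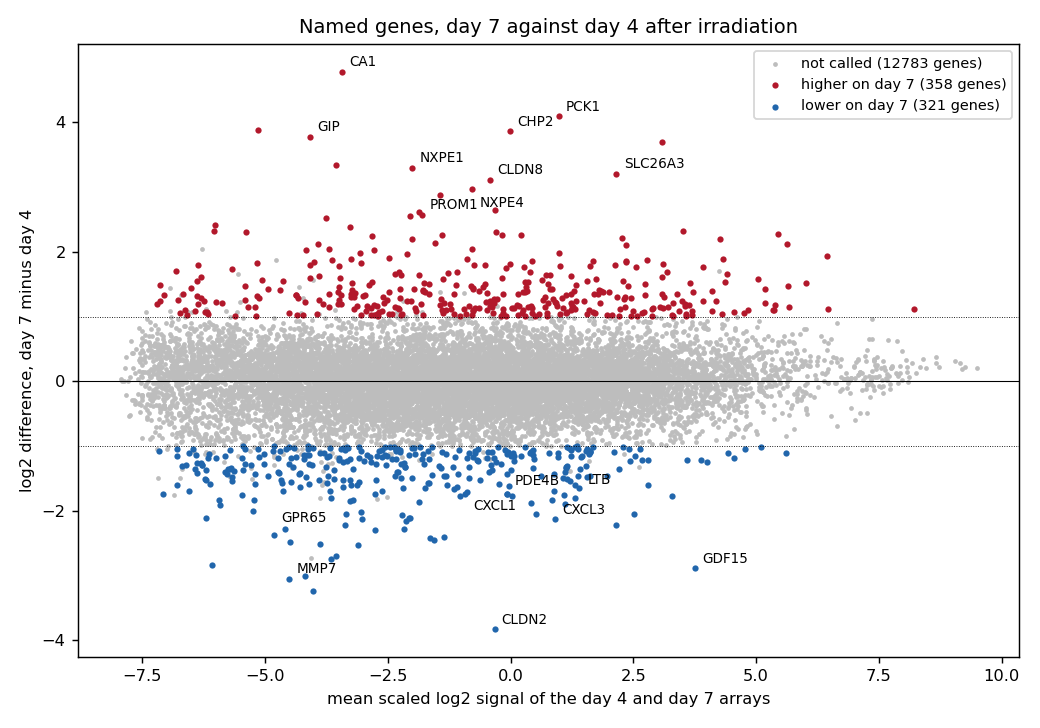
Log2 difference between day 7 and day 4 (vertical axis) against the mean scaled log2 signal of those arrays (horizontal axis) for 13462 named genes, 1 point a gene. Red points are the 358 genes called higher on day 7, blue points the 321 called lower, grey points the rest, and the dotted lines mark a 2-fold difference. The highest points are genes of absorptive colonocytes such as CA1 and PCK1, and the lowest is CLDN2.

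Genes of absorptive surface colonocytes had the most rises of the 32 gene lists examined. Of 22 measured genes of a list of 26, 16 were higher on day 7 and none was lower, and the median log2 difference was 1.89. Every gene of this list except CA4 (log2 difference -0.71, not called) had a positive value. The median signal of the list lay between -1.21 and 2.31 on the day 4 arrays and between 1.21 and 3.54 on the day 7 arrays. The controls lay between 3.23 and 3.82.

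CHP2, a partner protein of sodium-proton exchangers, had the largest rise among genes whose day 4 and day 7 arrays did not overlap. Its scaled log2 signal on day 4 ran from -5.90 through a median of -1.26 to 0.33, and on day 7 from 0.44 through 2.32 to 2.52. The rise was 14.5-fold (log2 difference 3.86 ± 0.58, SE; adjusted p = 1.4e-04). The lowest day 4 levels, -5.45 and -5.90, were both in animals given 7.4 Gy. The controls held 2.78 to 3.14 and thus lay above every irradiated array of either day. A second CHP2 probe gave a log2 difference of 4.05, and with normexp background correction CHP2 was at 3.25.

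SLC26A3, the chloride-bicarbonate exchanger of the colonic surface, ran from -1.94 through 0.78 to 2.59 on day 4 and from 3.01 through 3.96 to 4.34 on day 7. It was 9.24-fold higher on day 7 (log2 difference 3.21 ± 0.54, adjusted p = 4.8e-04) with no overlap, from 7 day 4 arrays, since 1 spot had been marked as an outlier. CA1, a carbonic anhydrase, was 27.4-fold higher (log2 difference 4.78 ± 0.68, adjusted p = 1.0e-04), or 2.54 on the log2 scale with normexp background correction. Its signal was well above background on only 3 of the 8 day 4 arrays, where it ran from -7.69 through -6.35 to -3.20, against -4.64 through -0.50 to 0.72 on day 7. The lowest CA1 level of day 7 was on a 7.4 Gy array and lay within the day 4 range. PCK1, an enzyme of glucose synthesis, was 17.1-fold higher (log2 difference 4.10 ± 0.69, adjusted p = 3.7e-04), also with overlapping arrays.

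The other genes of the list that rose were TMIGD1, GUCA2A and GUCA2B, AQP8, SLC26A2, SLC16A1, CA2, TRPM6, HSD17B2, KRT20, CA7 and CDHR5, with log2 differences from 1.04 for CDHR5, a brush border cadherin, to 3.34 for TMIGD1. GUCA2A and GUCA2B encode the peptides guanylin and uroguanylin and rose by 2.12 and 2.32 on the log2 scale. AQP8, a water channel, rose by 2.27 and SLC16A1, which carries short-chain fatty acids, by 1.98. MS4A12 was at 0.83 and BEST4, which marks a small class of colonocytes, at 0.48, and neither was called.

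**Figure D2:**
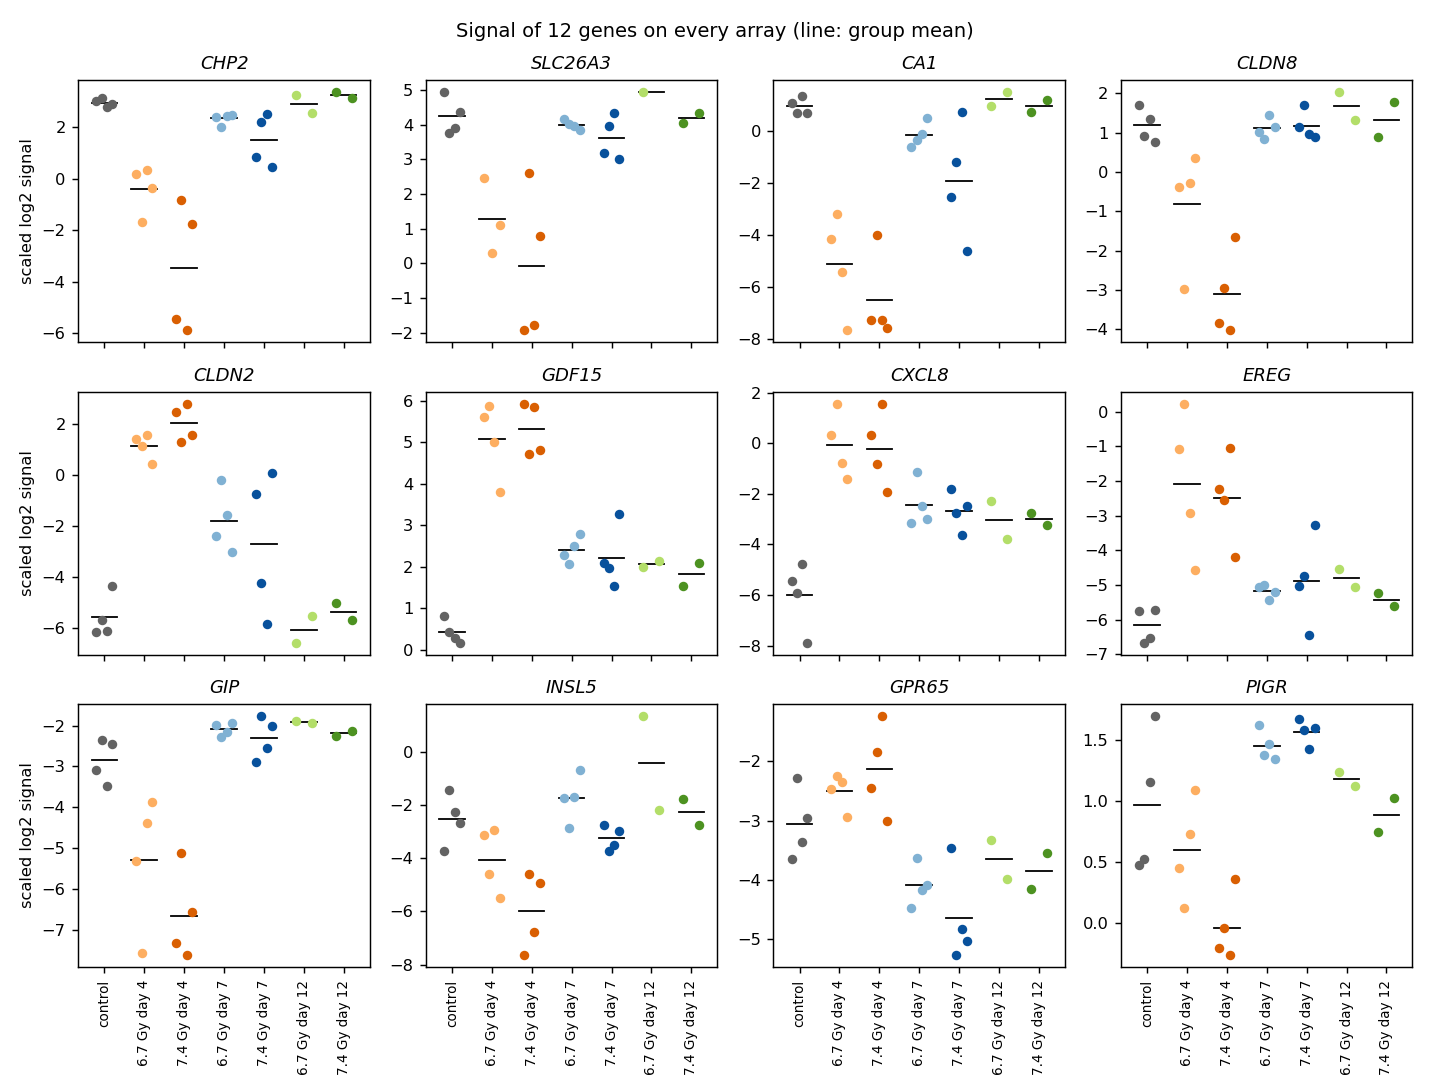
Scaled log2 signal (vertical axes) of 12 genes on every array by group (horizontal axes), with a line at each group's mean. CHP2, SLC26A3, CA1 and CLDN8 are lowest on day 4, CLDN2, GDF15, CXCL8 and EREG are highest on day 4, and GPR65 is lower on day 7 than on day 4.

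Among genes that mark the colon epithelium as a whole, 3 were higher on day 7. Of 10 tested, VIL1, CDX2 and LGALS4 were called higher, none was called lower, and the median log2 difference was 0.61. VIL1, the villin of the brush border, ran from -0.38 through 0.60 to 1.14 on day 4 and from 1.58 through 1.95 to 2.06 on day 7. The groups did not overlap, and the rise was 2.54-fold (adjusted p = 1.1e-05). CDX2, the transcription factor that sets intestinal identity, was 2.37-fold higher and LGALS4, a galectin of the gut lining, 2.16-fold higher, each without overlap. LGALS4 lost its call under quantile normalization, where its difference was under 2-fold. EPCAM, KRT8 and KRT19 had log2 differences from 0.59 to 0.65 and were not called, and KRT18 was at -0.22. Both the absorptive list and this list had medians above that of all genes, and their part in each other's difference was not tested.

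Genes of fuel use and detoxification held 7 calls, all higher on day 7. Of 17 tested genes of fatty acid oxidation and ketone synthesis, 16 had positive values with a median of 0.65, and ACADS and HADH were called higher. ACADS, the dehydrogenase of short-chain fatty acids, ran from 3.69 through 4.42 to 5.42 on day 4 and from 5.40 through 5.91 to 6.45 on day 7, a rise of 2.68-fold (adjusted p = 1.7e-05). HADH, a later dehydrogenase of that cycle, was 2.46-fold higher (adjusted p = 5.4e-05). Of 20 genes of xenobiotic enzymes and transporters, 5 were higher and none lower, with a median of 0.57. They were SULT1B1, UGT2A3, CYP4F12, UGT1A1 and CES2. CYP4F12, a cytochrome P450, ran from -0.49 through 0.59 to 1.29 on day 4 and from 1.51 through 2.07 to 2.52 on day 7, and was 3.10-fold higher (adjusted p = 9.4e-06). SULT1B1, a sulfotransferase, was 3.21-fold higher, and UGT2A3, a glucuronosyltransferase, 3.17-fold higher. FMO5, a flavin monooxygenase outside the list, was 4.79-fold higher without overlap. GSTA1, a glutathione transferase, was at -1.34 on the log2 scale and was not called.

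Some transporters of ions and water rose. Of 20 tested, 7 were higher, none was lower, and the median was 0.21. BEST2, an anion channel of colonic goblet cells, ran from -5.91 through -2.47 to -0.86 on day 4 and from -1.70 through 0.24 to 1.05 on day 7, a rise of 7.37-fold (adjusted p = 6.4e-04) with overlap. The log2 difference of BEST2 was 2.17 with normexp background correction. HSD11B2, which protects the mineralocorticoid receptor from cortisol, was 3.81-fold higher without overlap (adjusted p = 1.0e-04). The receptor itself, NR3C2, was higher by 1.30 on the log2 scale, and SCNN1A, the alpha subunit of the epithelial sodium channel, by 1.27. The beta and gamma subunits SCNN1B and SCNN1G were at 0.05 and 0.01 and were not called. SLC4A4, a sodium-bicarbonate cotransporter, was 3.13-fold higher without overlap. CFTR, the chloride channel of crypt cells, was at 0.81, SLC12A2, which loads chloride for secretion, at -0.41, and KCNE3, a potassium channel subunit of the same pathway, at -0.998, and none of these was called.

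Among tight junction genes the day difference ran in opposite directions in CLDN2 and CLDN8. Of 19 tested, CLDN8, TJP3 and CLDN7 were higher and CLDN2 was lower, with a median of 0.53. CLDN2, which forms pores for small cations and water, ran from 0.44 through 1.497 to 2.78 on day 4 and from -5.85 through -1.97 to 0.09 on day 7. It was 14.2-fold lower on day 7 (log2 difference -3.82 ± 0.66, adjusted p = 4.3e-04), the largest fall among genes without overlap. The day 7 arrays were widely spread, and those given 7.4 Gy held both the lowest and the highest level. The log2 difference of CLDN2 was -3.19 with normexp background correction. The control arrays lay between -6.14 and -4.36 and those of day 12 averaged -5.71.

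CLDN8, a sealing claudin of the distal colon, ran from -4.03 through -2.29 to 0.35 on day 4 and from 0.85 through 1.07 to 1.69 on day 7. It was 8.63-fold higher (log2 difference 3.11 ± 0.39, adjusted p = 3.7e-05), and its day 7 arrays lay within the control range of 0.75 to 1.71. CLDN7, a claudin of the lateral membrane, was 2.27-fold higher and TJP3, a scaffold of the junction, 2.59-fold higher, both without overlap. The log2 difference was 0.81 for CLDN3, 0.42 for CLDN4, 0.74 for OCLN, 0.92 for CGN and -0.57 for CLDN1, and none of these 5 was called.

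Goblet cell and mucus genes rose in part. Of 18 tested, 4 were higher and none lower, and 15 had positive values with a median of 0.77. ST6GALNAC1, which adds sialic acid to mucins, was 3.05-fold higher (adjusted p = 1.1e-04). ATOH1, the transcription factor that commits cells to the secretory fate, ran from -5.48 through -4.27 to -2.63 on day 4 and from -3.33 through -2.73 to -2.32 on day 7, a rise of 2.75-fold. ATOH1 was at 0.84 on the log2 scale and no longer called with normexp background correction. FCGBP, a protein of the mucus gel, was 2.53-fold higher, and CLCA1, a goblet cell protease, was higher by 1.14 on the log2 scale. MUC2, the main gel-forming mucin, ZG16 and TFF3 lay between 0.93 and 0.96 and missed the 2-fold limit. RETNLB and TFF1 were at -0.57 and -1.12 and were not called.

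Antimicrobial genes were also split. Of 17 tested, DMBT1 and PIGR were higher and CHI3L1, CAMP and PI3 were lower, with a median of -0.57. PIGR, the receptor that carries IgA through the epithelium, ran from -0.26 through 0.24 to 1.09 on day 4 and from 1.34 through 1.52 to 1.67 on day 7, a rise of 2.34-fold (adjusted p = 5.4e-05) without overlap. DMBT1, a mucosal scavenger protein, was 4.80-fold higher, but its day 7 arrays ran from -2.64 through -0.93 to 2.55 and overlapped those of day 4. CHI3L1, a secreted chitinase-like protein, was 4.67-fold lower (adjusted p = 0.0012) and CAMP, the precursor of cathelicidin, 4.19-fold lower (adjusted p = 0.0145), the latter at -1.36 on the log2 scale with normexp background correction. PI3, the protease inhibitor elafin, ran from 3.58 through 4.09 to 4.76 on day 4 and from 0.18 through 2.40 to 4.76 on day 7, a fall of 3.43-fold. The control range of PI3 was -0.15 to 0.57. DMBT1 and PI3 were no longer called within the later scan day, at log2 differences of 2.24 and -2.004 (adjusted p = 0.0824 and 0.0596). SAA1, NOS2, DUOXA2 and LCN2 had log2 differences from -1.78 to -0.86 and were not called.

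Hormone genes of enteroendocrine cells went both ways. Of 17 tested, GIP, INSL5 and MLN were higher, PCSK1 and CHGB were lower, and the median was 0.06. GIP, an incretin best known from the upper small intestine, ran from -7.62 through -5.94 to -3.86 on day 4 and from -2.90 through -2.08 to -1.77 on day 7. It was well above background on 3 of the 8 day 4 arrays and on all 8 of day 7. The rise was 13.7-fold (log2 difference 3.78 ± 0.42, adjusted p = 1.5e-05), and the control range of -3.47 to -2.36 overlapped that of day 7. Under normexp background correction GIP was at 1.77 on the log2 scale. INSL5, a peptide of colonic L cells, was 5.74-fold higher (adjusted p = 0.0025) with overlap, and MLN, which encodes motilin, 2.23-fold higher. INSL5 was at 1.102 and MLN at 0.72 on the log2 scale with normexp background correction, and MLN was then no longer called.

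CHGB, a granule protein of endocrine cells, ran from 1.77 through 2.70 to 3.37 on day 4 and from 0.79 through 1.29 to 1.68 on day 7, a fall of 2.75-fold (adjusted p = 2.5e-04) without overlap. PCSK1, which cleaves prohormones, was 2.95-fold lower (adjusted p = 5.1e-05), also without overlap. PCSK1 was at -0.94 on the log2 scale and no longer called with normexp background correction. CHGA and SCG2, of the same granules, were at -0.85 and -0.67, and GCG, PYY and SST, which encode the glucagon peptides, peptide YY and somatostatin, were at -0.54, 0.02 and -0.04. None of these 5 was called. In the list of small intestinal enterocytes, 2 of 16 genes were higher, none was lower and the median was 0.28. XPNPEP2, an aminopeptidase of the brush border, was 4.93-fold higher without overlap.

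**Figure D3:**
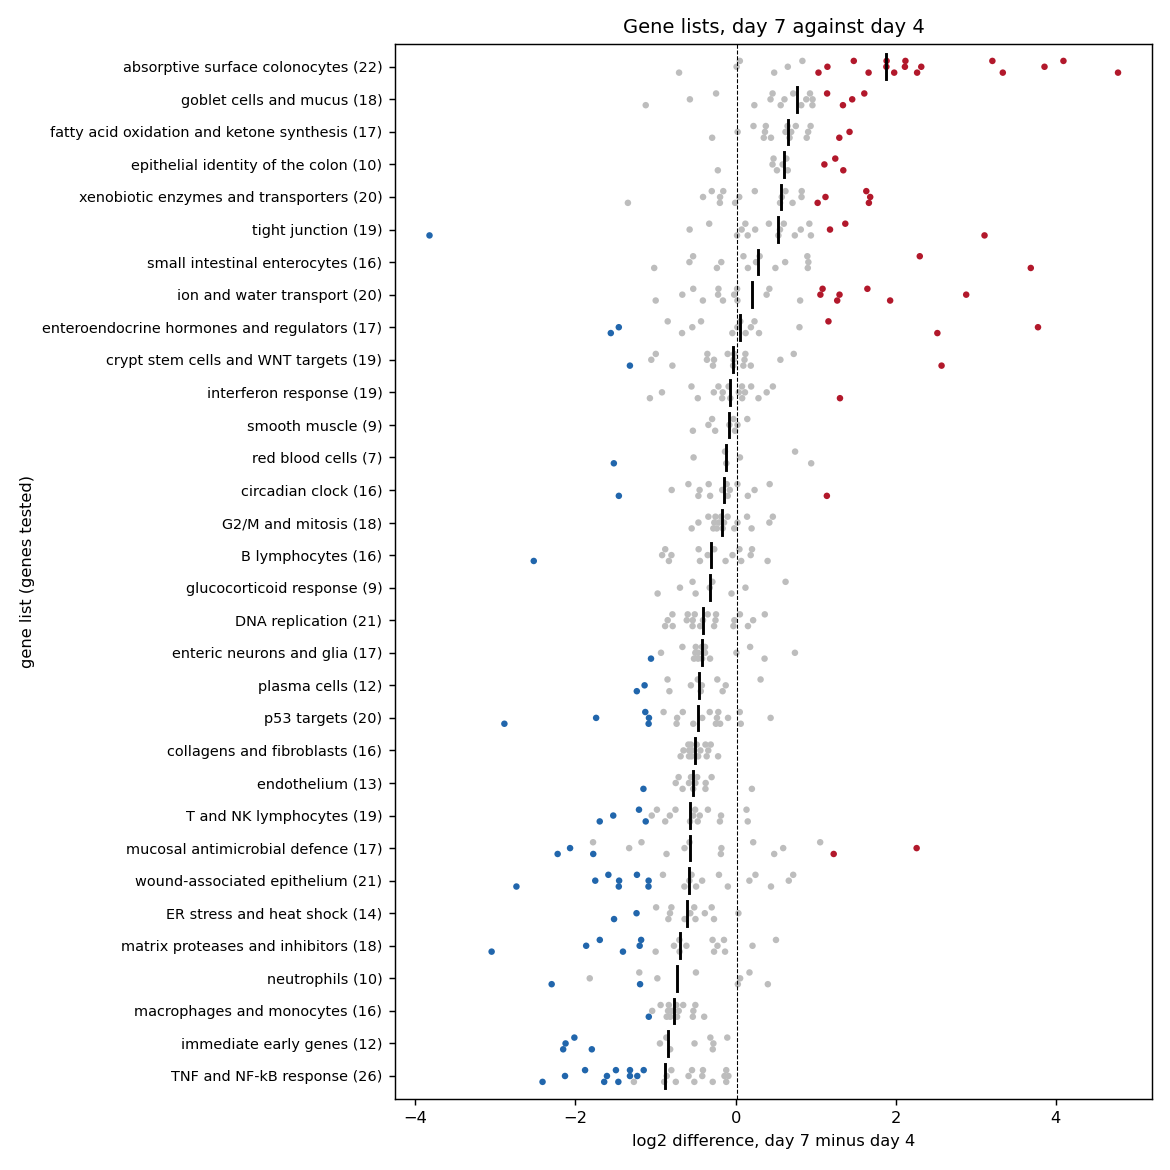
Log2 difference between day 7 and day 4 (horizontal axis) of every tested gene of 32 gene lists (vertical axis, with the number of genes tested in brackets). Red and blue points were called higher and lower on day 7, grey points were not called, black bars are list medians, and the dashed line is the median of all genes at 0.02. The list of absorptive surface colonocytes has the highest median, 1.89, and that of TNF and NF-kB response genes the lowest, -0.88.

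Among the remaining genes with the largest rises and no overlap, NXPE1 and NXPE4 belong to 1 gene family. NXPE1 ran from -6.20 through -3.55 to -1.52 on day 4 and from -0.71 through -0.30 to 0.03 on day 7 and was 9.83-fold higher (adjusted p = 6.8e-06). NXPE4 was 7.84-fold higher. The rise was 5.88-fold for C12H2orf88 and 4.81-fold for SRI, a calcium-binding protein. With normexp background correction the log2 difference was 2.40 for NXPE1 and 1.89 for C12H2orf88.

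Genes of the TNF and NF-kB response lay lower on day 7. Of 26 tested, 11 were called lower, none was called higher, and every one of the 26 had a negative value, with a median of -0.88. CXCL8, the main neutrophil attractant, ran from -1.91 through -0.23 to 1.55 on day 4 and from -3.61 through -2.63 to -1.15 on day 7. It was 5.32-fold lower (log2 difference -2.41 ± 0.54, adjusted p = 0.0031) with overlap, and 2 other CXCL8 probes were lower by 2.07 and 2.21 on the log2 scale. The controls lay between -7.89 and -4.76, below every array of day 4 and day 7.

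CXCL3, a related chemokine, ran from 0.85 through 1.95 to 3.36 on day 4 and from -1.05 through -0.20 to 0.63 on day 7, a fall of 4.38-fold (adjusted p = 8.2e-05) without overlap. CXCL1 was 3.68-fold lower without overlap. CXCL1, CXCL2 and CXCL3 are close relatives, and sharing of signal between their probes was not tested. The cytokine IL1A fell by 1.64 on the log2 scale, the chemokine CCL20 by 1.46, PTGS2, the inducible cyclooxygenase, by 1.32, and the NF-kB inhibitor TNFAIP3 by 1.23. IER3, TNFAIP6 and CCL2 were the other members called lower. TNF itself was at -0.86, IL6 at -0.80, IL1B at -1.27 and ICAM1 at -0.29, and none of these 4 was called.

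Outside the list, CLCF1, a cytokine of the IL6 family, was 3.09-fold lower without overlap. PDE4B, a cAMP phosphodiesterase of inflammatory cells, ran from -0.31 through 0.96 to 1.55 on day 4 and from -1.18 through -1.002 to -0.48 on day 7, a fall of 3.34-fold (adjusted p = 2.0e-05). LTB, which encodes lymphotoxin beta, was 3.12-fold lower. PSD2, which activates small GTPases, fell 3.00-fold, and ST8SIA4, which builds polysialic acid, fell 3.10-fold. With normexp background correction CLCF1, PSD2 and ST8SIA4 were at -0.71, -0.45 and -0.61 on the log2 scale, and these 3 were no longer called.

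Immediate early genes, which cells switch on within minutes of a stimulus, had negative values in all 12 tested, with a median of -0.84. NR4A2, EGR1, EGR2 and NR4A1 were called lower. NR4A2 was 4.45-fold lower (adjusted p = 0.0034), EGR1 4.36-fold and EGR2 4.04-fold, each with overlap. EGR1 and EGR2 were at -1.38 and -1.26 on the log2 scale with normexp background correction. FOS, ATF3 and JUN were at -0.94, -0.86 and -0.28 and were not called. In the list of ER stress and heat shock genes, CHAC1 and TRIB3 were lower among 14 tested, and the median was -0.60. CHAC1, a glutathione-degrading enzyme of the ATF4 response, ran from -0.54 through 0.11 to 0.90 on day 4 and from -1.66 through -1.46 to -1.01 on day 7, a fall of 2.86-fold (adjusted p = 2.2e-05). TRIB3, of the same response, was 2.36-fold lower, but at -0.58 on the log2 scale and no longer called with normexp background correction. The call of TRIB3 was also lost over the median of its probes. HSPA5, the main chaperone of the endoplasmic reticulum, was at -0.80 and was not called.

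Genes of wound-associated epithelium were lower in 8 of 21 tested and higher in none, with a median of -0.58. EREG, a ligand of the EGF receptor, ran from -4.57 through -2.38 to 0.23 on day 4 and from -6.45 through -5.06 to -3.28 on day 7, where it was well above background on 5 of 8 arrays. It was 6.67-fold lower (adjusted p = 0.0016), or -1.44 on the log2 scale with normexp background correction. TNFRSF12A, the receptor of the cytokine TWEAK, was 3.37-fold lower, and ANXA3, an annexin, 3.01-fold lower. The other genes of this list that fell were ANXA1, CLU, HBEGF, and CTGF and CYR61, both targets of YAP. KRT7 and KRT17 had log2 differences of 0.44 and 0.72 and were not called.

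Matrix proteases and their inhibitors were lower in 6 of 18 tested, with none higher and a median of -0.70. MMP7, matrilysin, was 8.27-fold lower (adjusted p = 0.0029), or -1.13 on the log2 scale with normexp background correction. It ran from -5.04 through -3.43 to -0.31 on day 4 and from -8.30 through -5.45 to -4.43 on day 7, where 4 of 8 arrays were well above background. MMP3, stromelysin, was 3.65-fold lower and ADAMTS1, an aggrecanase, 3.24-fold lower, and PLAU and TIMP1 fell by 1.41 and 1.18 on the log2 scale. MMP9, MMP2 and MMP12 were at -0.77, -0.70 and -0.13 and were not called.

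Among p53 targets, 5 of 20 were lower and none was higher, with a median of -0.47. GDF15, a stress cytokine, ran from 3.81 through 5.32 to 5.93 on day 4 and from 1.53 through 2.19 to 3.28 on day 7. It was 7.40-fold lower (log2 difference -2.89 ± 0.29, adjusted p = 7.5e-06) without overlap, and every day 7 array was above the control range of 0.17 to 0.81. PLK2, a polo-like kinase, was 3.35-fold lower, and GADD45A, a growth-arrest gene, 2.19-fold lower without overlap. PHLDA3 and ZMAT3 fell by 1.09 and 1.08 on the log2 scale. CDKN1A, the p21 cell-cycle inhibitor, was at -0.74, EDA2R, a receptor of the TNF family, at -0.90, MDM2, which degrades p53, at -0.22 and SESN1 at 0.05, and none of these 4 was called.

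**Figure D4:**
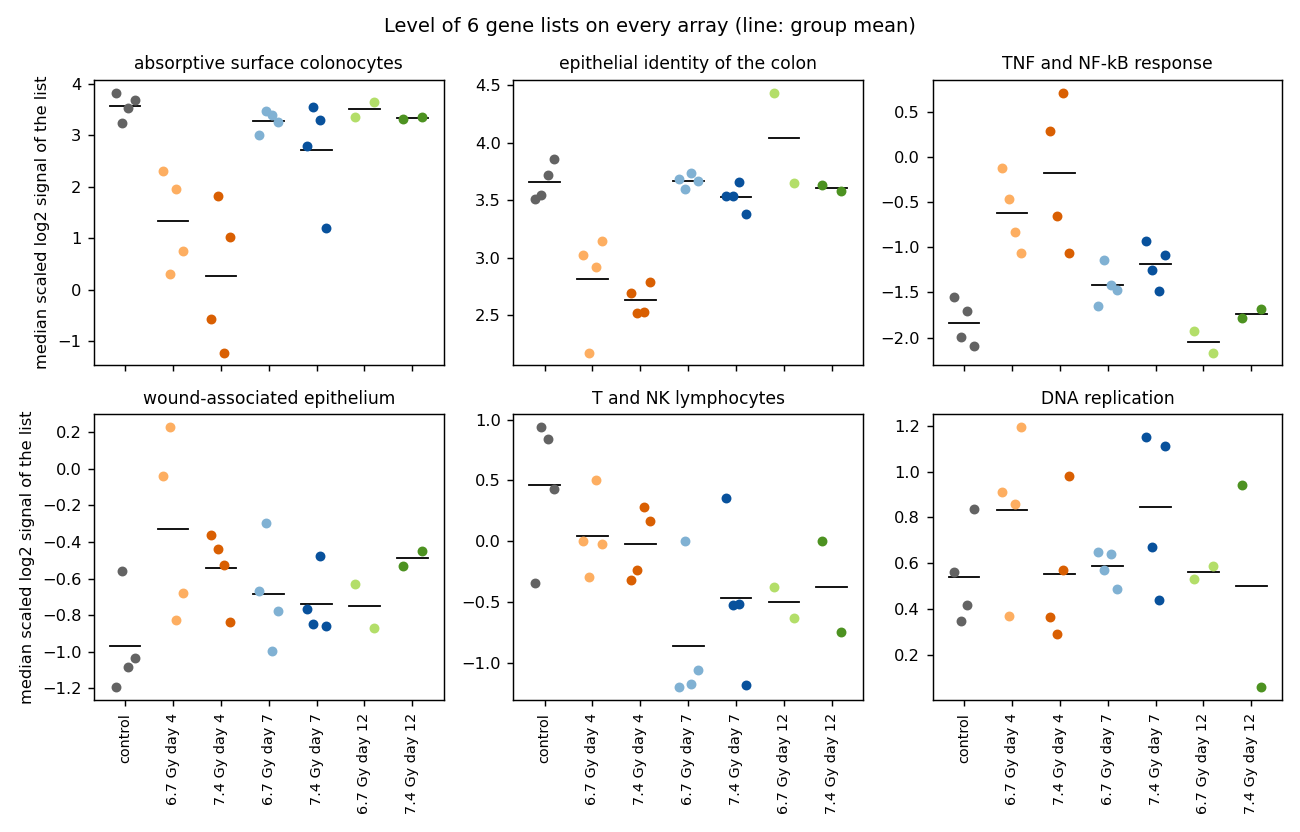
Median scaled log2 signal over the genes of 6 lists (vertical axes) on every array by group (horizontal axes), with a line at each group's mean. The level of absorptive colonocyte genes is lowest on day 4 and that of TNF and NF-kB response genes highest on day 4. The day 4 and day 7 arrays overlap in every list shown except that of epithelial identity of the colon.

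A few lymphocyte genes were lower on day 7. Of 19 T and NK genes tested, 4 were lower, GZMK, CD27 and IL7R among them, none was higher, and the median was -0.57. CD27, a co-receptor of T and B cells, ran from 0.74 through 1.06 to 1.70 on day 4 and from -0.66 through -0.10 to 0.46 on day 7, a fall of 2.31-fold (adjusted p = 7.8e-04) without overlap. GZMK, a granzyme, was 2.88-fold lower with overlap. The call of GZMK was lost within the later scan day (log2 difference -1.38, adjusted p = 0.0732) and with normexp background correction (-0.61, adjusted p = 0.038). CD3E, CD3D and CD8A, which define T cells, were at -0.88, -0.75 and -0.57 and were not called. GPR65, a proton-sensing receptor of leukocytes, ran from -3.00 through -2.39 to -1.23 on day 4 and from -5.27 through -4.32 to -3.47 on day 7, a fall of 4.16-fold (adjusted p = 6.2e-05) without overlap, or -1.15 on the log2 scale with normexp background correction.

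CR2, the complement receptor of B cells and follicular dendritic cells, was the 1 gene called among 16 B lymphocyte genes. It was 5.74-fold lower (adjusted p = 0.0372), its arrays overlapped, and the call was lost in 16 of 35 alternatives, 12 of them the leaving out of a single array, with log2 differences from -2.89 to -1.29 over the alternatives. Another 2 CR2 probes were at -1.67 (called) and -0.10 (not called). MS4A1, which defines B cells, was at -0.35, not called. Of 12 plasma cell genes, DERL3 was 2.35-fold lower and TNFRSF17 2.20-fold lower, and the call of TNFRSF17 was lost in 9 of 35 alternatives, 6 of them the leaving out of a single array (adjusted p up to 0.0598). Within the later scan day DERL3 was at -0.98 (adjusted p = 0.133) and TNFRSF17 at -0.68 (adjusted p = 0.293). JCHAIN, the joining chain of secreted IgA, was at -0.16 and was not called.

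Myeloid genes were mostly below 0. Of 10 neutrophil genes tested, 2 were lower, LILRA2 among them, and the median was -0.74. LILRA2, an immunoglobulin-like receptor of myeloid cells, ran from -2.69 through -1.64 to -0.78 on day 4 and from -3.36 through -3.04 to -2.01 on day 7, a fall of 2.29-fold (adjusted p = 0.0012) with overlap. LILRA2 was at -0.81 on the log2 scale and no longer called with normexp background correction. Its call was also lost over the median of its probes. S100A8 and S100A9, abundant in neutrophils, were at -1.82 and -1.20 and were not called. Positive values were held by 4 of the 10, CXCR1 at 0.40, CSF3R at 0.17, MMP8 at 0.06 and AQP9 at 0.03, none of them called. All 16 macrophage and monocyte genes had negative values with a median of -0.77, and SIGLEC1, a macrophage lectin, was the 1 called, at 2.12-fold lower (adjusted p = 0.0111). The call of SIGLEC1 was lost in 6 of 35 alternatives, with a log2 difference of -0.91 without replicate 4 of 6.7 Gy day 4, -0.93 without replicate 1 of 7.4 Gy day 4 and -0.997 without replicate 4 of 6.7 Gy day 7.

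Genes of the other tissues in the wall held 2 calls. All 16 collagen and fibroblast genes were below 0 with a median of -0.51, and none was called. PDGFRB, a receptor of fibroblasts and pericytes, was at -0.69 (adjusted p = 0.0083) and DCN, decorin, at -0.59 (adjusted p = 0.0111), both under the 2-fold limit. VCAM1, an adhesion receptor for leukocytes, ran from 1.55 through 2.05 to 2.38 on day 4 and from 0.13 through 0.93 to 1.29 on day 7. It was 2.22-fold lower without overlap (adjusted p = 1.4e-04) and was the 1 gene called among 13 of endothelium, whose median was -0.53. PECAM1 and VWF, which define endothelium, were at -0.50 and -0.75, not called. None of 9 smooth muscle genes was called, and their median was -0.08. SYNM and LMOD1, both of the contractile cytoskeleton, had the smallest p of that list, at -0.53 and -0.29. VIP, a neuropeptide, was the 1 gene called among 17 of enteric neurons and glia, at 2.08-fold lower (adjusted p = 0.0419), and its call was lost in 19 of 35 alternatives, 11 of them the leaving out of a single array (adjusted p up to 0.109). The medians of the lists of T and NK lymphocytes, macrophages, endothelium and fibroblasts were below 0, and their part in the rises of absorptive genes was not tested.

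HBB, beta globin, was the 1 gene of 7 red blood cell genes that was called, at 2.87-fold lower on day 7 (adjusted p = 0.0195). The call of HBB was lost with normexp background correction (log2 difference -0.63, adjusted p = 0.128), with the methods' t-test after Benjamini-Hochberg (adjusted p = 0.0618) and over the median of its probes (-1.29). It ran from -4.51 through -3.01 to -1.83 on day 4 and from -6.13 through -5.01 to -2.93 on day 7, and the controls lay between 2.18 and 3.39. The log2 difference was -0.62 at 6.7 Gy and -2.42 at 7.4 Gy. A second HBB probe was at -1.06 and was not called, and HBA2, alpha globin, was at -0.12.

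Cell division genes held no calls on either side. Of 21 DNA replication genes and 18 G2/M and mitosis genes none reached both limits of a call, and the medians were -0.41 and -0.17. Positive values were held by 4 of the 21 and 5 of the 18. CDC6, which loads the replicative helicase, ran from -0.28 through -0.16 to -0.03 on day 4 and from 0.01 through 0.21 to 0.38 on day 7. The arrays did not overlap and the adjusted p was 0.0012, but the difference was 1.29-fold and other CDC6 probes ran from -0.34 to 0.43 on the log2 scale. CCNE1, cyclin E, was at -0.88 (adjusted p = 0.0018), BIRC5, survivin, at -0.55 (adjusted p = 0.0482) and CDC25C, a phosphatase that starts mitosis, at 0.47 (adjusted p = 0.0817). PCNA was at -0.60 (adjusted p = 0.0069), MCM4 at -0.79 (adjusted p = 0.0094) and MCM10 at -0.85 (adjusted p = 0.0107), all under the 2-fold limit. TOP2A was at 0.02.

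Crypt stem cell and WNT target genes had a median of -0.03 over 19 tested. PROM1, a protein of membrane protrusions, ran from -4.70 through -3.06 to -2.16 on day 4 and from -1.78 through -0.43 to 0.38 on day 7, a rise of 5.95-fold (adjusted p = 4.0e-05) without overlap, and 3 other PROM1 probes were called higher as well. LEF1, a transcription factor of WNT signalling that T cells also use, ran from -0.39 through -0.26 to 0.23 on day 4 and from -2.03 through -1.41 to -1.31 on day 7, a fall of 2.50-fold (adjusted p = 4.6e-05) without overlap. LGR5, which marks crypt stem cells, was at -0.02, SOX9 at -0.02, ASCL2 at -0.997 and OLFM4 at -1.05, and none of these 4 was called.

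The last 3 lists held few calls. Of 19 interferon response genes, RSAD2, viperin, was 2.47-fold higher (adjusted p = 0.0118; 0.92 on the log2 scale and not called with normexp background correction), none was lower, and the median was -0.07. The list median was 0.46 at 6.7 Gy and -0.56 at 7.4 Gy, a difference that was not tested. Of 16 circadian clock genes, 1 was higher and 1 lower. The latter was BHLHE40, a repressor, at 2.75-fold lower (adjusted p = 4.6e-05) without overlap. ARNTL, PER2 and NR1D1, which form the core of the clock, were at 0.43, -0.07 and 0.02, not called. None of 9 glucocorticoid response genes was called. DUSP1, a phosphatase of MAP kinases, was at -0.97 (adjusted p = 0.0079), just under the limit, and MT2A, a metallothionein, at 0.62.

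A few genes stood farther from the controls on day 7 than on day 4. Among the 13462 genes tested, 679 were called. Of these 679, 9 were of this kind, 2 of them higher and 7 lower. Their day 7 arrays overlapped neither the day 4 nor the control arrays, and their day 7 mean lay farther from the control mean. TSPAN8, a tetraspanin of the gut epithelium, ran from 4.42 through 4.87 to 5.20 on day 4 and from 5.68 through 6.04 to 6.08 on day 7, and from 4.89 to 5.42 in the controls. It was 2.15-fold higher on day 7 (adjusted p = 1.1e-04), with 1 day 4 and 2 day 7 spots left out as outliers. ACADSB, an acyl-CoA dehydrogenase, was 2.08-fold higher, and its call was lost in 9 of 35 alternatives. Its log2 difference was 0.85 without replicate 2 of 6.7 Gy day 4, 0.98 without replicate 1 of 7.4 Gy day 4 and 0.99 without replicate 3 of 7.4 Gy day 7.

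Among the genes of this kind that were lower, DUSP5, a phosphatase of ERK, ran from 0.84 through 1.38 to 2.16 on day 4 and from -0.58 through -0.16 to 0.44 on day 7, with the controls between 0.54 and 0.85. It was 2.75-fold lower on day 7 (adjusted p = 2.3e-05). GATA3, a transcription factor of T and innate lymphoid cells, was 2.05-fold lower, and PTPRC, which encodes the leukocyte antigen CD45, 2.03-fold lower, with the calls lost in 4 and 8 of 35 alternatives. The log2 difference of GATA3 fell under the limit without replicate 3 of 6.7 Gy day 4 (-0.99), replicate 3 of 6.7 Gy day 7 (-0.87) or replicate 4 of 7.4 Gy day 7 (-0.97), and that of PTPRC without any 1 of 6 arrays (-0.99 to -0.90). FAM49A was 2.08-fold lower, but at -0.88 on the log2 scale and not called with normexp background correction. LRRK2, a kinase found in immune cells, was 2.19-fold lower, and its log2 difference was -0.93 without replicate 4 of 6.7 Gy day 7. With normexp background correction the log2 differences were -0.08 for LRRK2, -0.45 for GATA3 and -0.32 for PTPRC, and none of these 3 was called. CRTAM, a receptor of cytotoxic T cells, was well above background on no day 7 array. Its call (limma, adjusted p = 0.0011) rests on day 7 signals that were not well above background. Its day 7 level was also bounded by the dimmest probe well above background on each array. By that bound CRTAM was at least 1.23-fold lower, which does not reach the 2-fold limit, and the p-value does not test the bound. CRTAM was not called with normexp background correction (adjusted p = 0.451).

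The day difference was next taken within each dose, with 4 arrays against 4. At 6.7 Gy 623 probes were called (1.63%), and at 7.4 Gy 2087 (5.46%). The 2 comparisons share no array. Across the 38234 probes their log2 differences correlated with a Pearson r of 0.647 and a Spearman rho of 0.631, as a description, since probes are not independent. Of the calls, 428 were made at both doses, which is 68.7% of those at 6.7 Gy and 20.5% of those at 7.4 Gy, and all 428 had the same direction.

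Of the 1697 probes called over both doses, 1696 had the same sign at each. A call over both doses rests on the mean of the 2 differences, which favours probes of the same sign. This count is therefore no test of agreement between the doses. The log2 difference at 6.7 and 7.4 Gy was 2.73 and 4.98 for CHP2, 1.94 and 4.28 for CLDN8, 2.19 and 4.40 for NXPE1 and -2.93 and -4.71 for CLDN2. It was 4.96 and 4.60 for CA1 and -2.67 and -3.11 for GDF15. The difference between doses was itself tested, and 1 of 38234 probes was called (0.00262%), with 564 at an unadjusted p under 0.05 and at least 2-fold. The count at 6.7 Gy depended on single arrays. Without replicate 1, 2 or 4 of 6.7 Gy day 4 it was 333, 160 or 1086, and without replicate 1, 3 or 4 of 6.7 Gy day 7 it was 202, 324 or 322. With slide as a fixed block it was 39.

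The 1 probe whose day difference differed between doses was that of FIBIN, named for a secreted factor of fin and limb buds. At 6.7 Gy its 4 day 4 arrays held -3.37, -2.87, -2.99 and -2.92 and its 4 day 7 arrays -2.48, -2.42, -2.58 and -2.28. At 7.4 Gy the day 4 arrays held -2.13, -2.29, -2.07 and -2.40 and the day 7 arrays -2.76, -3.17, -3.04 and -3.03. The difference was thus positive at 6.7 Gy and negative at 7.4 Gy, with no overlap at either dose. The log2 differences were 0.60 and -0.78, and limma's adjusted p for the contrast between them was 0.0215. Leaving out 1 array at a time gave no called probe for 9 of the 16 arrays (replicate 3 of 6.7 Gy day 4, replicates 1, 2 and 3 of 7.4 Gy day 4, replicates 1, 2 and 4 of 6.7 Gy day 7, and replicates 2 and 3 of 7.4 Gy day 7) and 2 probes without replicate 2 of 6.7 Gy day 4 or replicate 4 of 7.4 Gy day 7.

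**Figure D5:**
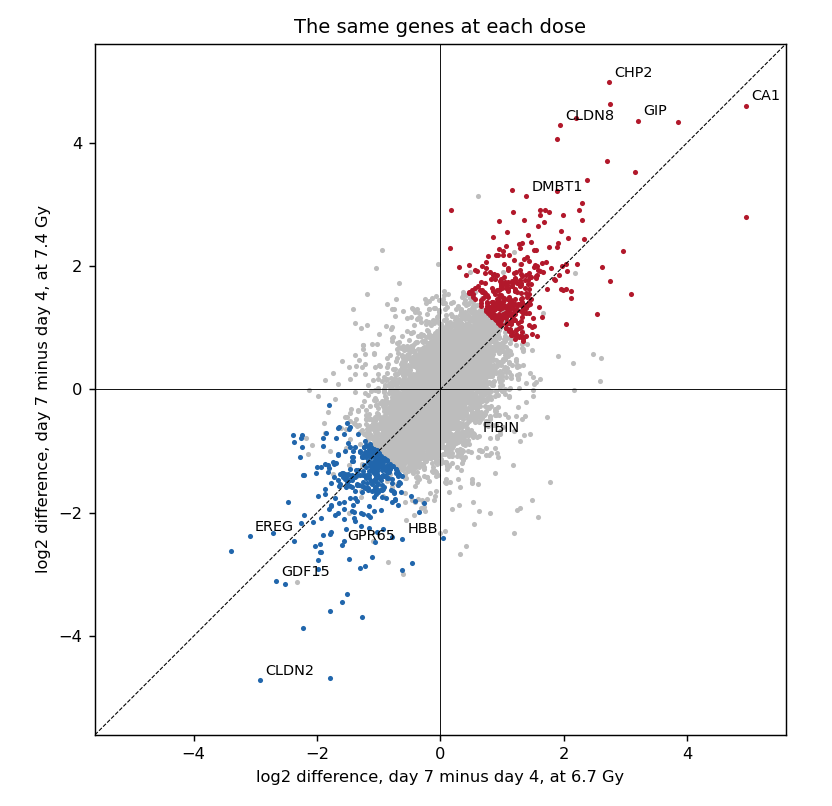
Log2 difference between day 7 and day 4 at 7.4 Gy (vertical axis) against that at 6.7 Gy (horizontal axis) for 13462 named genes. Red and blue points were called higher and lower over both doses, and the dashed line marks equal differences. CHP2 lies above the line at 2.73 and 4.98, CLDN2 below it at -2.93 and -4.71, and FIBIN is positive at 6.7 Gy and negative at 7.4 Gy.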

How the data were processed

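Colon RNA of 24 animals was hybridised to Agilent rhesus macaque arrays in 1 colour. The authors scanned them and deposited intensity values from Feature Extraction 11.0.1.1 and a table of log2 values scaled by the 75th percentile and centred on each probe. Here the processed intensity per spot was used, with log2 taken, spots marked as outliers left out, spots of 1 probe averaged and each array's 75th percentile over transcript probes subtracted. No spot was saturated.

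Of 43603 probes, 38234 passed the filter of 2 arrays well above background. Names came from the files and, through gene IDs and accessions, from RefSeq, and each gene was taken from its probe of highest mean signal. A mean for each of 7 groups was fitted with limma 3.58.1 on all 24 arrays, which share 1 estimate of spread, and p-values were adjusted by Benjamini-Hochberg over all probes. A call also needed a 2-fold difference. Array quality was compared by exact permutation within dose. The number of arrays limits the precision.

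The lists and the rule for named genes were chosen with earlier results of these data known. Genes named were the 12 largest rises and 12 largest falls called without overlap, up to 3 called genes in each direction of a list (or the 2 smallest p), called genes farther from control on day 7, and genes whose difference depended on dose. Some genes that the rule picks are not reported here. Other list members were named after their values were seen. Scripts were tested on simulated data, and figures were drawn with matplotlib 3.10.9.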

Additional observations from a re-analysis of the deposited data

Results flagged for a closer look

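In 395 sets of 4 arrays (the named genes and 3 measures of array quality in each of the 4 groups), 13 had an end array far from the other 3. Chance flags about 1 in 20 such sets. In 6.7 Gy day 4, replicate 2 was lowest for C12H2orf88 at -4.59, CCNE1 at -0.22 and VIL1 at 0.33, and replicate 3 was highest for XPNPEP2 at -0.26. The 75th percentile of replicate 1 in that group, 772.6, was the lowest. In 7.4 Gy day 4, replicate 2 was highest for CA1 at -3.998 and for the share of probes well above background at 82.6%, and replicate 1 was lowest for ACADSB at -2.29. In 6.7 Gy day 7, replicate 2 was lowest for CHP2 at 2.03 and BIRC5 at -2.20 and highest for SIGLEC1 at 2.45. In 7.4 Gy day 7, replicate 3 was lowest for ANXA3 at -2.25, and replicate 2 was lowest for TSPAN8 at 5.71.

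FIBIN was singled out because its day difference differed between doses by -1.38 on the log2 scale (limma, adjusted p = 0.0215). The difference was 0.60 at 6.7 Gy and -0.78 at 7.4 Gy.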

How the results depend on the processing

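Of the 87 named genes that were called, 61 were called under every alternative tried, 22 lost the call under normexp background correction, and none took the opposite sign. That correction, made on median spot signals, called 747 probes over both doses (443 higher, 304 lower), 329 at 6.7 Gy, 993 at 7.4 Gy and 0 for the difference between doses. Without the 2-fold limit the counts were 9923 (5584 higher, 4339 lower), 1554 and 6053. On the 16 arrays alone 386 probes were called at 6.7 Gy and 0 for the difference between doses. The methods' t-test called 1172 probes at 6.7 Gy at an unadjusted p under 0.05 and 2-fold. After Benjamini-Hochberg it called 37 at 6.7 Gy and 616 at 7.4 Gy. Slide as a fixed block left 39 calls at 6.7 Gy, and within the earlier scan day, with 2 arrays against 2, there was 1. The call for the difference between doses was also lost (0 probes) under spike-in scaling, slide or scan day as a fixed block, and the replicate block. The cause of these changes was not tested.

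The replicate block called 1664 probes over both doses, 542 at 6.7 Gy and 2019 at 7.4 Gy. The deviations of same-numbered arrays of different groups had r from -0.23 to 0.24, with 5 of 24 pairs over 0.1. Low values of r cannot exclude a pairing by number. Each array came from a different animal. Arrays of the same slide, in different groups, had a median r of 0.11 (10 of 14 pairs over 0.1), against -0.02 for different slides (12 of 82 pairs). Leaving out each array in turn gave 1463 to 1954 probes over both doses (776 to 1036 higher, 687 to 974 lower), 160 to 1086 at 6.7 Gy, 1443 to 2286 at 7.4 Gy and 0 to 2 for the difference between doses. At 6.7 Gy the arrays that moved the count by over 1.5 times were replicates 1, 2 and 4 of day 4 (333, 160 and 1086) and replicates 1, 3 and 4 of day 7 (202, 324 and 322).

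Array position as a random block called 1724 probes. In a comparison added after the data were seen, arrays in position 2 against 1 within 6.7 Gy day 4 differed in 29 called probes, and those in position 4 against 3 within 7.4 Gy day 7 in 0 (limma). At an unadjusted p under 0.05 and 2-fold these counts were 2007 and 627, beside 1525 for day 7 against day 4 at 6.7 Gy. Both of these splits are also splits of scan day. In the first, the log2 difference was -3.32 for EREG, -2.78 for NR4A2, -2.62 for EGR1 and -2.64 for MMP3. It was 2.33 for GIP, 2.10 for NXPE4, 1.71 for CLDN8, -2.03 for CXCL8 and -2.13 for HBB. These genes had the direction of their day differences, and they are not the only ones that did. CA1 at -2.88, DERL3 at 1.33, TNFRSF17 at 0.99, SIGLEC1 at 0.98 and CHI3L1 at 0.70 went against theirs. CLDN2 was at -0.28, SLC26A3 at -0.29 and PCK1 at 0.20. The part of position or scan day in the day differences was not tested. In the second split EREG was at 0.02, NR4A2 at -0.10, EGR1 at 0.31 and MMP3 at -0.01. GIP was there at 0.04, NXPE4 at -0.17, CLDN8 at -0.49, CXCL8 at -0.76 and HBB at -0.05. The median of the list of enteroendocrine genes took the opposite sign under 5 of 35 alternatives, that of interferon response genes under 6, that of smooth muscle under 2, and those of crypt stem cell, G2/M and red blood cell genes under 1 each. Probes not well above background on an array give a bound there.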

Other observations

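Several genes were spread together within the 4 animals of 7.4 Gy day 7, a pattern picked after the values were seen. Replicates 1 and 4 held the lower levels of CHP2 (0.84 and 0.44, against 2.22 and 2.52 in replicates 2 and 3) and the higher levels of CLDN2 (-0.74 and 0.09, against -4.25 and -5.85). DMBT1 was at 2.55 and 2.08 in those same replicates, against -1.61 and -2.14, and PI3 was at 3.39 and 4.76, against 0.63 and 0.18. The controls held 2.78 to 3.14 of CHP2 and -6.14 to -4.36 of CLDN2, so replicates 2 and 3 lay nearer to them in both genes. GDF15 was at 2.10 and 3.28 in replicates 1 and 4 and at 1.97 and 1.53 in replicates 2 and 3.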
